A study of Harpegnathos saltator with 14 samples.

Results

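In the ant Harpegnathos saltator, 42 of 20317 HSALG gene models were shared by embryos and late pupae and low in larvae, workers and males. Harpegnathos saltator is a ponerine ant whose workers hunt live prey. Whole-body RNA was read in 14 libraries from 7 groups of 2 replicates. Before adulthood the groups were embryos, instar 1 and instar 4 larvae, and pupae at an early and a late stage, and the remaining groups were workers and males. Animals of all groups were kept in plaster nests at 25 °C, 50% humidity and a 12-hour cycle of light and dark, and were fed crickets. The labels give no genotype, treatment or colony, no age in days and, for males, no stage beyond the sex. They do not say whether a library holds 1 animal or a pool, so a p-value here covers no more than the scatter of the replicate libraries. In whole bodies, fewer cells of a type and less RNA per cell cannot be told apart.

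Ants undergo complete metamorphosis. The embryo builds the body of the larva inside the egg, the larva feeds and grows, and the pupa, which does not feed, breaks down much of the larval body and builds the adult one. Embryo and pupa are thus stages in which tissues are shaped and appendages or sense organs are laid out. The label under which these genes were gathered, body-building genes, could not be checked against function, because 0 identifiers of the table matched the 14329 genes of the reference name table (assembly Hsal_v8.6). The genes are therefore named by identifier, no role is given to any of them, and they are called here the shared embryo and late pupa genes.

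The genes were chosen by their measured values, on L, the log2 of RPKM + 1, where RPKM is reads scaled to the length of the gene model and to library size. The lowest L of the 4 embryo and late pupa libraries had to be at least 1, or 2-fold, above the highest L of the 8 larval, worker and male libraries. This distance is the margin of a gene. Of 45 HSALG genes that met it, 1 was dropped because both embryo libraries, and 2 because both late pupa libraries, lay at least 2 above every library of the other groups except early pupae. None of the 438 XLOC gene models met the margin (0 of 438). The contrast of embryos and late pupae with the other 4 groups is thus a description and carries no test, and only the early pupa libraries were not used. All 42 genes passed the filter for testing, 2 or more libraries with an RPKM of 1 or higher, which the choice itself assured.

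The 42 genes took up about 1% of gene reads at their highest. They held 1.06% and 0.496% of the reads in genes in embryo replicates 1 and 2 and 0.714% and 0.634% in late pupa replicates 1 and 2. In the 8 larval, worker and male libraries the share ran from 0.0402% to 0.0741%. Early pupa replicate 1 stood at 1.03%, with the embryos and late pupae, and early pupa replicate 2 at 0.123%, closer to the larvae. Their median level was 32.2 and 13.2 RPKM in the embryo libraries and 15.6 and 14.9 RPKM in the late pupa libraries, with a range over the 4 libraries from 1.84 to 399 RPKM. Median levels were 1.56 and 0.954 RPKM in instar 1, 0.950 and 0.816 RPKM in instar 4, 0.720 and 0.866 RPKM in workers and 0.753 and 0.615 RPKM in males. The median of all 12421 genes tested moved far less, between 2.69 RPKM in instar 4 replicate 2 and 8.34 RPKM in embryo replicate 1.

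**Figure D1:**
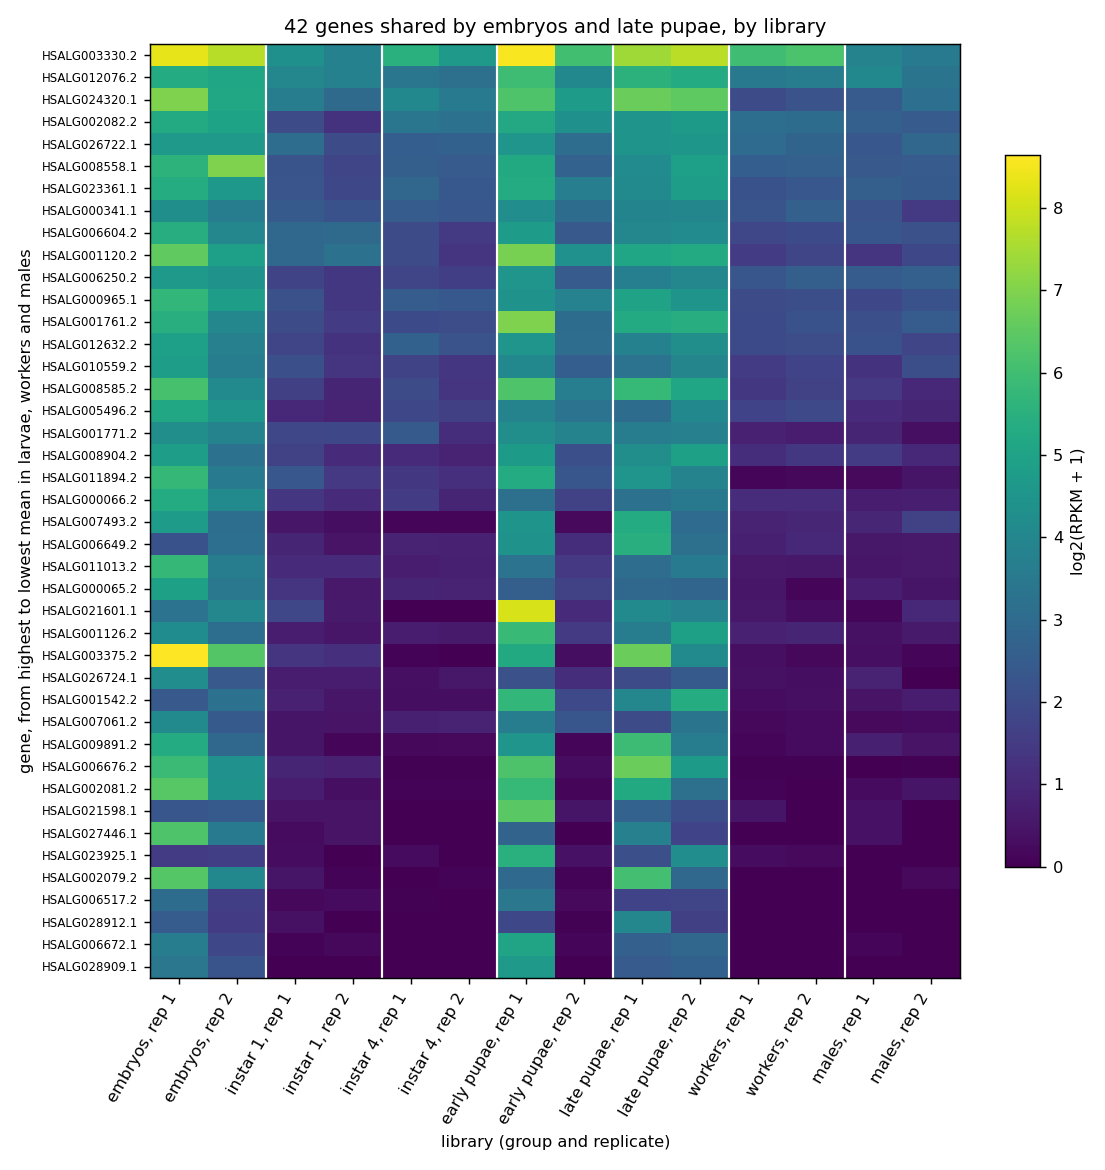
Heat map of log2(RPKM + 1) for the 42 genes (rows) in 14 libraries (columns, 2 per group), with brighter colour for a higher level. In every row both embryo libraries, both late pupa libraries and early pupa replicate 1 are brighter than larvae, workers and males. Early pupa replicate 2 is dark for many genes, above all in the lower rows, where larvae, workers and males are near 0.

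How many genes shared this pattern depended on scaling and on single libraries. Libraries scaled by median ratios gave 18 genes, 16 of them among the 42, and quantile scaling also gave 18, of which 15 were among the 42. With log2(RPKM + 0.1) there were 83, which held all 42. Without embryo replicate 2 there were 111, and without late pupa replicate 1 there were 92. A margin of at least 2 left 9 genes.

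The highest levels belonged to HSALG003330.2 and HSALG003375.2, which differed in how far they fell elsewhere. HSALG003330.2 stood at 321 and 209 RPKM in the embryo libraries and at 168 and 215 RPKM in late pupae. It kept 62.1 and 73.1 RPKM in workers and 44.1 and 24.3 RPKM in instar 4, against 19.1 and 12.8 RPKM in instar 1 and 13.7 and 10.4 RPKM in males. The gene was thus present at every stage, and the values of males and instar 1, its lowest groups, overlapped. HSALG003375.2 stood at 399 and 80.4 RPKM in embryos and 102 and 16.8 RPKM in late pupae. It had 1.54 and 1.24 RPKM in instar 1 and at most 0.288 RPKM in each instar 4, worker and male library, where it was close to silent.

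The largest margin was that of HSALG006676.2. It stood at 58.2 and 19.9 RPKM in embryos and at 101 and 25.2 RPKM in late pupae, while instar 1 had 0.878 and 0.732 RPKM. The 6 instar 4, worker and male libraries held at most 3 reads of it each, and male replicate 1 held 0. HSALG028909.1, the shortest gene at 180 bases, had 0 reads in all 8 larval, worker and male libraries, with 26 and 14 reads in embryos and 15 and 39 reads in late pupae. Its mean of 5.87 RPKM over the embryo and late pupa libraries was at least 47.0-fold higher than a floor of 3 reads over the 8 libraries together, which covers counting error only.

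At the edge of the choice the distances were small. HSALG000341.1 and HSALG006604.2 lay just inside, with margins of 1.01 and 1.02. Just outside were HSALG012703.2 at 0.995 and HSALG025212.1 at 0.986. A margin of at least 0.5 was met by 158 HSALG genes and one above 0 by 697, so the 42 are the end of a continuous range.

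Levels outside embryos and pupae split the genes into 3 kinds. In 16 genes all 8 larval, worker and male libraries were under 1 RPKM, in 15 all 8 were at or above 1 RPKM, and 11 were mixed. The margin used these levels, so the 38.1% of genes under 1 RPKM throughout, against 6.05% of 12024 HSALG genes tested, is given with no reading. The quiet genes had a median of 13.9 and 5.52 RPKM in embryos, against 39.7 and 24.8 RPKM for the 15 genes at or above 1 RPKM throughout. The highest of the 8 libraries was an instar 1 library for 19 genes, an instar 4 library for 9, a worker library for 8 and a male library for 6. These were 45.2%, 21.4%, 19.0% and 14.3% of the 42, beside 39.9%, 12.4%, 19.7% and 28.1% of HSALG genes tested, a difference that carries no test.

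Early pupae, which had no part in the choice, were split between their libraries. In early pupa replicate 1 all 42 genes lay at least 1 on the L scale above the highest of the 8 larval, worker and male libraries, where 9.68% of HSALG genes tested did so. Of these, 39 were at or above the lowest embryo or late pupa library, beside 11403 of the 12024 HSALG genes tested. Above all 4 of those libraries were 14 of the 42, beside 2028 of the 12024. Nothing is read from these counts. In early pupa replicate 2 only 7 of 42 lay at least 1 above the highest of the 8 libraries, against 1.42% of HSALG genes tested, 25 lay above it at all (13.9%), and 17 were at or below it. All 42 lay above it in replicate 1, against 31.6% of HSALG genes tested. The highest of the 8 was low by choice, which fixes these counts in part. Between the early pupa libraries themselves, replicate 1 was higher for all 42 genes and at least 4-fold higher for 25, against 6.95% of HSALG genes tested. The median difference was 2.54 on the L scale, where all genes tested had 0.55. The choice enters this comparison too, since the genes had to be high in late pupae. Over all genes tested, early pupa replicate 1 correlated at 0.86 and 0.93 with late pupa replicates 1 and 2. Early pupa replicate 2 correlated with them at 0.70 and 0.68, so nothing is read from these counts. The labels do not say how the early pupa libraries differ, and of all genes tested 25.8% were at least 2-fold higher in early pupa replicate 1, the largest such share in any group.

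The gene whose lower early pupa library lay farthest above the larval, worker and male levels was HSALG008585.2, at 75.9 and 11.9 RPKM in early pupae. The same 8 libraries held between 0.869 and 2.91 RPKM of it, and embryos and late pupae had 69.7, 16.5, 54.0 and 33.1 RPKM. HSALG007061.2, with 6888 bases the longest of the genes, followed with 11.6 and 4.02 RPKM in early pupae against at most 0.797 RPKM in the 8 libraries. Least above those levels in their higher early pupa library, HSALG026724.1 had 3.42 and 1.18 RPKM and HSALG000065.2 5.07 and 2.21 RPKM in early pupae. HSALG000065.2 was highest in embryos, at 29.4 and 10.01 RPKM. HSALG026724.1 had 18.0 and 4.36 RPKM in embryos against 2.94 and 4.42 RPKM in late pupae, so only embryo replicate 1 stood above late pupae.

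**Figure D2:**
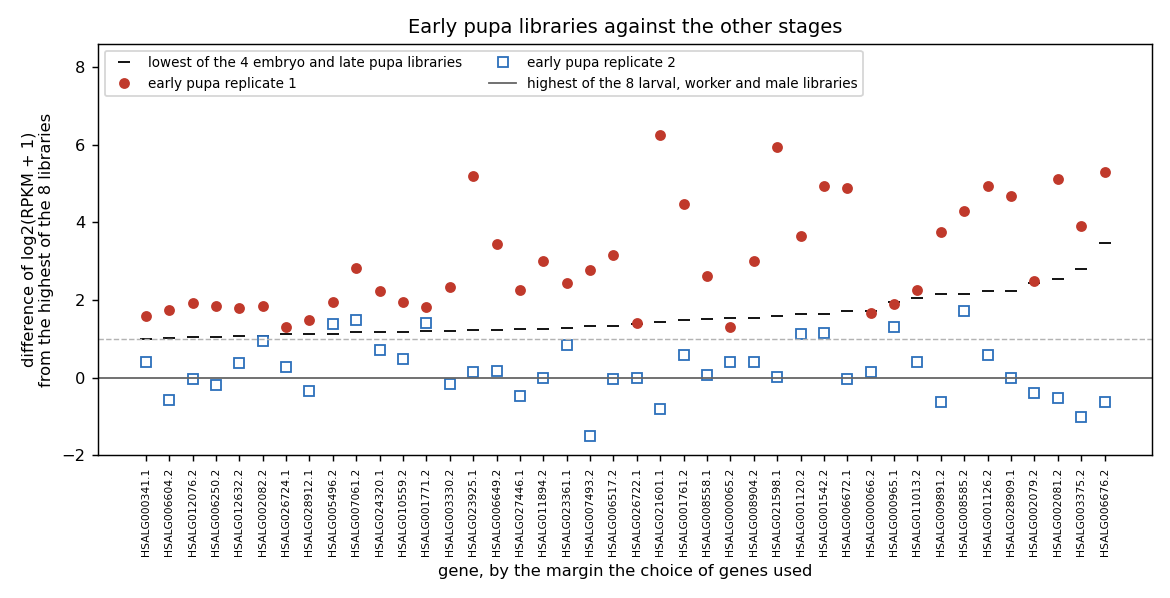
Difference of log2(RPKM + 1) from the highest of the 8 larval, worker and male libraries (solid line at 0, dashed line at 1) for each of the 42 genes, ordered by margin. Filled circles are early pupa replicate 1, open squares early pupa replicate 2, and dashes the lowest embryo or late pupa library. All 42 circles lie above 1, while 7 squares do and 17 lie at or below 0.

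Against instar 4 larvae, 2 of the 42 genes were called higher in early pupae (limma with Benjamini-Hochberg adjustment, adjusted p below 0.05), where 0.258% of all genes tested were and 0.628% were called in either direction. Instar 4 was low by choice, so nothing is read from this count, and the genes called are described by their values without a test. HSALG001771.2 had 18.2 and 13.5 RPKM in early pupae against 4.47 and 1.21 RPKM in instar 4, with no overlap, a log2 difference of 2.26. HSALG001120.2 had 117 and 19.6 RPKM against 3.02 and 1.46 RPKM, a log2 difference of 3.97. These calls were lost in 16 and 14 of 23 alternatives. Without early pupa replicate 2 limma called 38 of the 42 genes higher, and without early pupa replicate 1 it called 0. Calls were also 0 without instar 4 replicate 2 or any 1 instar 1, late pupa, worker or male library, and 1 without instar 4 replicate 1.

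From early to late pupae limma called 0 of the 42 genes, with 2 at an unadjusted p below 0.05 and 0 by limma-voom, where 0.177% of all genes tested were called, 0.169% higher and 0.00805% lower in late pupae. Without early pupa replicate 1 the count was 19, all higher in late pupae, and without early pupa replicate 2 it was 2, both lower. The median log2 difference of the 42 genes was 0.49 with both early pupa libraries and -0.54 without replicate 2. The direction between early and late pupae therefore turned with the early pupa library used.

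Between late pupae and embryos few of the genes were called. Limma called 0 of the 42 genes higher and 2 lower in late pupae, where 7.34% and 38.3% of all genes tested were called, 45.6% in all. HSALG005496.2 had 7.23 and 15.3 RPKM in late pupae against 35.0 and 21.3 RPKM in embryos, a log2 difference of -1.29 ± 0.39 (SE; limma, adjusted p = 0.0207). HSALG000065.2 had 6.40 and 6.04 against 29.4 and 10.01 RPKM, a log2 difference of -1.34 ± 0.48 (limma, adjusted p = 0.0409). For both genes the groups did not overlap, but the calls were lost in 6 of 24 and 15 of 23 alternatives, over which adjusted p reached 0.927 and 0.820. Under median scaling the log2 differences of HSALG005496.2 and HSALG000065.2 were -0.05 and -0.15, and under quantile scaling -0.29 and -0.52. With limma-voom they were -0.295 and -0.377. Embryo and late pupa values both entered the choice, and genes led strongly by embryos or late pupae had been dropped, which bounds these differences. The p-values of the 2 genes are therefore given as description only.

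The direction between embryos and late pupae followed the scaling and the embryo library used. With RPKM as deposited the median log2 difference of the 42 genes, late pupae minus embryos, was -0.40, against -0.78 for all genes tested. Of the 42 genes 14 were higher in late pupae. Without embryo replicate 1 this median was 0.20, with 23 genes higher in late pupae. Without embryo replicate 2 this median was -0.80, with 8 genes higher. Under median scaling it was 0.84, against 0.20 for all genes, with 6 genes called, all higher in late pupae, and under quantile scaling 0.67, with 4 called higher. All genes had -0.18 under quantile scaling. Embryo and late pupa libraries both entered the choice, so nothing is read from the distance between the 42 and all genes. Limma-voom called 4 higher. Calls also moved with single libraries: 10 without either early pupa library (3 higher and 7 lower), 6 without embryo replicate 2, 0 without late pupa replicate 1, and 1 without embryo replicate 1 or any 1 instar 4, worker or male library.

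Embryo replicate 1 held more of these genes than replicate 2, and late pupa libraries parted them. In embryos 35 of 42 genes were higher in replicate 1, 25 of them at least 2-fold, where 12.0% of all genes tested were at least 2-fold higher, and the median difference was 1.19 on the L scale against 0.11. In late pupae 9 genes were at least 2-fold higher in replicate 1, 4 were at least 2-fold higher in replicate 2, and 29 lay within 2-fold. Shares of 3.0% and 5.76% of all genes tested lay that far apart in late pupae. The 4 libraries entered the margin by their lowest value. The drop also used their higher values, and took out only genes where both libraries of a group led. Gaps between replicates were thus not free of the choice. The groups of 9, 4 and 29 genes were made after the values were seen and are described without a test.

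Of the 9 genes higher in late pupa replicate 1, 7 were under 1 RPKM in all 8 larval, worker and male libraries. The median of the 9 was 42.3 and 8.07 RPKM in late pupae, 58.2 and 10.7 RPKM in embryos, 21.5 RPKM in early pupa replicate 1 and 0.109 RPKM in early pupa replicate 2. In early pupa replicate 2, 8 of the 9 were under 1 RPKM, against 4 of the 29 genes within 2-fold. No larval, worker or male library held more than 2.27 RPKM of any of the 9. The 4 genes higher in late pupa replicate 2 had medians of 7.35 and 23.6 RPKM there. In early pupae their medians were 47.7 RPKM in replicate 1 and 2.28 RPKM in replicate 2, and replicate 1 exceeded all embryo and late pupa libraries for 3 of the 4. HSALG023925.1, chosen here after its values were seen, had 44.0 RPKM in early pupa replicate 1 but 0.349 RPKM in replicate 2, on either side of its 1.84 and 2.04 RPKM in embryos. It had 3.33 and 17.9 RPKM in late pupae.

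**Figure D3:**
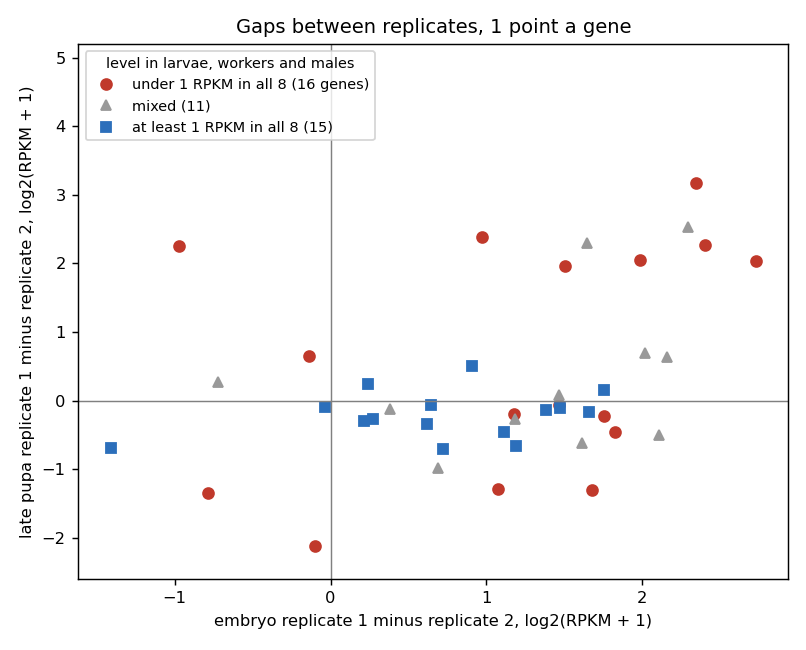
Gap between replicates 1 and 2 of embryos (horizontal axis) and of late pupae (vertical axis) on log2(RPKM + 1), 1 point for each of the 42 genes, by level in larvae, workers and males. Genes at or above 1 RPKM in all 8 of those libraries (squares) lie near 0 on the vertical axis, while those under 1 RPKM in all 8 (circles) spread above and below it.

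Across the 42 genes the embryo gap and the late pupa gap had a Pearson r of 0.37, against -0.18 over all genes tested. Genes of 1 library share that library, so these values describe the libraries and carry no test. Levels in early pupa replicate 2 correlated across the 42 genes at 0.77 with late pupa replicate 2 and at 0.29 with late pupa replicate 1, where all genes tested gave 0.68 and 0.70. Late pupa replicate 1 correlated at 0.66 with each embryo library, where all genes tested gave 0.64 and 0.61. The late pupa libraries correlated with each other at 0.58 over these genes, against 0.92 over all genes tested.

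Between the larval instars few of the genes were called. Limma called 1 of 42 higher and 0 lower in instar 4 than in instar 1, where 5.23% and 23.7% of all genes tested were called, 28.9% in all. All 4 larval libraries were held low by the choice, which fixes this count in part, so nothing is read from it against the share of all genes. The gene was HSALG002082.2, with 9.40 and 8.31 RPKM in instar 4 and 2.90 and 1.42 RPKM in instar 1, which did not overlap. The log2 difference was 1.68 ± 0.37 (limma, adjusted p = 0.00562), and the call was lost in 1 of 24 alternatives, without instar 4 replicate 1 (limma, adjusted p = 0.0506), with adjusted p from 0.000414 to 0.0506 over all of them. The count was 6, all higher, under median scaling and with limma-voom, 3, all higher, under quantile scaling, and 5 with only the 4 libraries, 1 higher and 4 lower. It was 2, both higher, with a pseudocount of 0.1, 3 without either early pupa library, 1 higher and 2 lower, and 0 without instar 4 replicate 1. Between 18 and 23 of the 42 genes were under 1 RPKM in each larval library, where this scale understates changes and few reads back a value. The median log2 difference was -0.08, against -0.36 for all genes, and turned to 0.14 under median scaling, against 0.09.

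Between males and workers limma called 0 of the 42 genes, where 2.99% of all genes tested were called, 1.69% higher and 1.3% lower in males. Workers and males too were held low by the choice, so nothing is read from this count against the share of all genes. At an unadjusted p below 0.05 there was 1, HSALG003330.2, at 13.7 and 10.4 RPKM in males and 62.1 and 73.1 RPKM in workers. Its groups did not overlap, and its log2 difference was -2.40 ± 0.65 (limma, adjusted p = 0.0824). It was called in 6 of 24 alternatives, among them without either early pupa library and with limma-voom, which called 1 gene, and adjusted p ran from 0.00385 to 0.427. The median log2 difference of the 42 genes was 0, with 19 above 0. A p that misses the threshold does not show that the genes are equal in males and workers.

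The length of a gene model was not a term of the choice, but RPKM is scaled to it. Nothing is therefore read from the lengths. Lengths resolved from the steps of the RPKM values had a median of 1887 bases over the 42 genes, between 180 and 6888, against 1032 bases over HSALG genes tested. Lengths were multiples of 3 for 41 of the 42 and for 97.8% of HSALG genes tested, so the table as a whole gives mostly coding lengths. Identifiers with the ending 2 made up 28 of the 42, or 66.7%, against 52.2%. What the ending stands for is not given in the sources used here.

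Some of the genes had identifier numbers that lay close together. Of the 42 genes 13 had a number within 5 of another of the 42 (31%), in 6 runs, where 1.88% of the other HSALG genes tested lay that close to one of the 42. The other 29 genes lay outside the runs. The window of 5 was chosen after the numbers were seen, and the sources used here do not say whether the numbers follow the genome. Tested neighbours outside the set showed a margin above 0 in 23 of 225 cases, or 10.2%, against 4.90% of the remaining 11757. The margin was the measure of the choice and the window was set afterwards, so nothing is read from these shares. If neighbouring models are near-identical copies, reads could be split between them by a counting step that is not given, so values within a run are uncertain to that extent.

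Within runs some genes had like profiles and others did not. HSALG021598.1 and HSALG021601.1 both peaked in early pupa replicate 1, at 85.3 and 275 RPKM. Between them HSALG021600.1, outside the set, stood at 58.0 RPKM there. It had 5.81 and 12.7 RPKM in embryos and 4.43 and 1.31 RPKM in late pupae. Early pupa replicate 2 held only 0.415 RPKM of HSALG021598.1, 1.08 RPKM of HSALG021601.1 and 0.323 RPKM of HSALG021600.1. HSALG006672.1 and HSALG006676.2 enclosed HSALG006674.2, the gene dropped as led by embryos, which had 157 and 38.7 RPKM in embryos, 5.69 and 5.13 RPKM in late pupae and 34.5 RPKM in early pupa replicate 1. In early pupa replicate 2 all 3 were at or below 0.225 RPKM. HSALG002079.2 and HSALG002081.2 were near equal in embryo replicate 1, at 81.9 and 82.4 RPKM, and fell to at most 0.594 RPKM in each of the 8 larval, worker and male libraries. HSALG002082.2, next in number, kept between 1.42 and 9.40 RPKM in those 8 libraries.

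**Figure D4:**
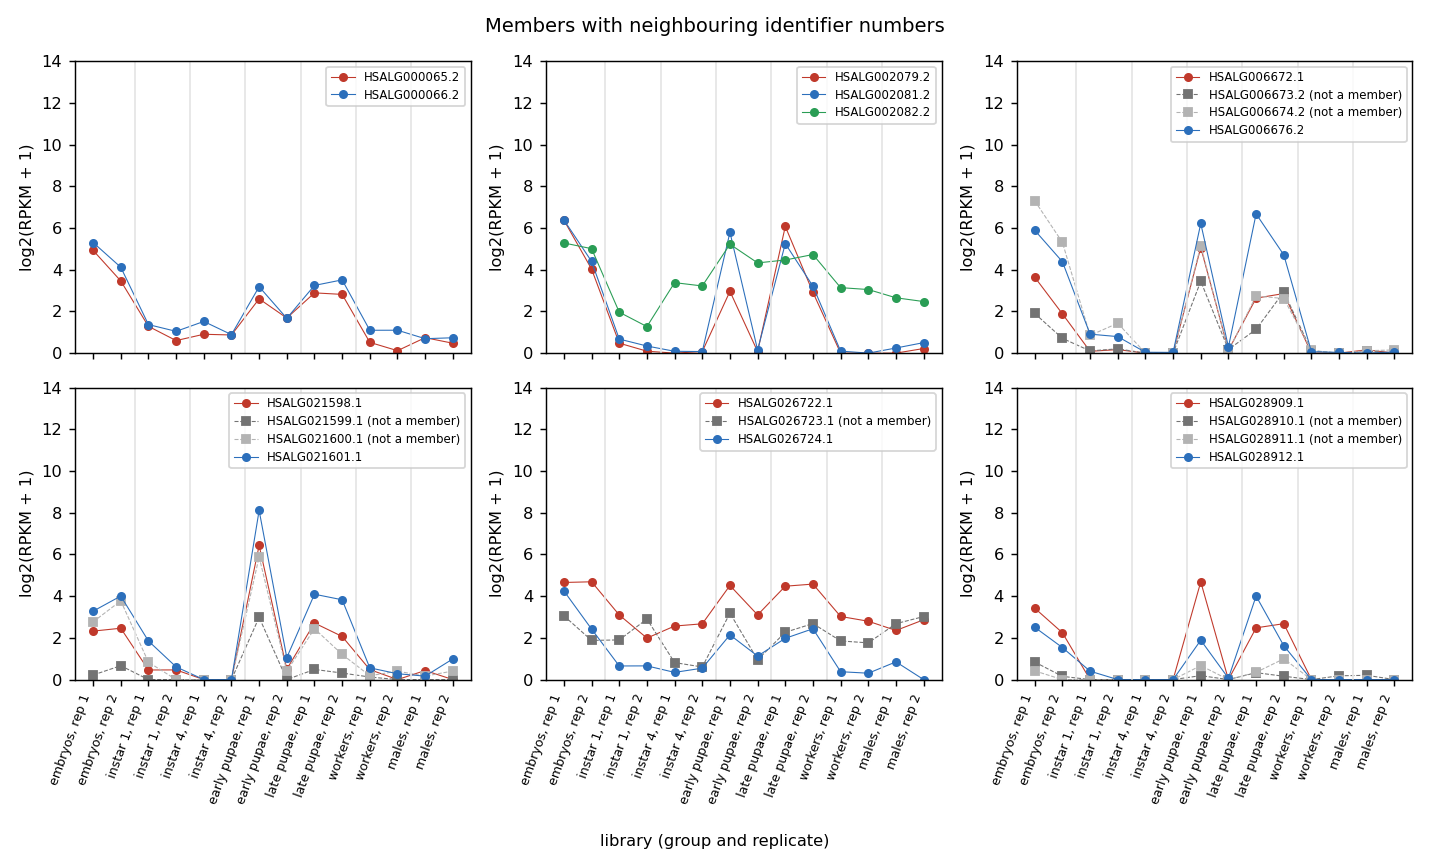
Levels as log2(RPKM + 1) in 14 libraries for the 6 runs of neighbouring identifier numbers, 1 panel a run, with the genes of the set as circles and tested or untested gene models between them as grey squares. Lines join the values of 1 gene to guide the eye and imply no order of replicates. HSALG000065.2 and HSALG000066.2 run close together across groups, while HSALG002082.2 stays above its neighbours in larvae, workers and males.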

How the data were processed

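The values are RPKM computed by the authors for 20755 gene models in 14 libraries and used as deposited. Per the labels' protocols, poly(A) RNA was extracted with TRIzol, fragmented, reverse transcribed from random hexamers and made strand-specific with dUTP. Per the submitters' processing notes the tools included STAR 2.5.0b and DESeq2, without saying for which step. How reads were counted, on which build and over which lengths, is not given in the sources used here. Groups and replicate numbers came from sample titles.

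Reads and lengths were resolved from the RPKM steps for 18541 of 18543 genes above 0 (99.99%). Library denominators ran from 11378689 to 40062880 reads, and reads in genes from 4255302 to 14139958. Resolving and testing were also run on simulated data, with outcomes not given here.

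limma 3.58.1 (R 4.3.3) was fitted to log2(RPKM + 1) of 12421 genes in all 14 libraries with a variance trend and no block, for 5 two-sided comparisons, with Benjamini-Hochberg adjustment over all genes tested. One spread per gene is taken for all groups, so the unlike early pupa libraries widen every comparison. Each of these was changed in turn: a pseudocount of 0.1, no filter or a mean RPKM of at least 5, median and quantile scaling, no trend, only the 4 libraries compared, no early pupae, a replicate block, limma-voom on resolved reads with median-ratio library sizes, and each library left out. Named genes are the 2 highest, the 2 of largest margin, those nearest the threshold, up to 2 called genes each way per comparison by log2 difference, the 2 highest and 2 lowest in early pupae, and the longest and shortest. Other genes named were chosen after their values were seen. The genes and comparisons were chosen with earlier results of these data known. Python 3.11.15 with numpy 2.4.6, pandas 2.3.3 and matplotlib 3.10.9 did the rest.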

Additional observations from a re-analysis of the deposited data

How the results depend on the processing

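Among 143 counts under another setting, 84 lay within 1.5 times of the reported count and 59 did not. Among 117 alternative values of the 5 named genes called, 65 kept their call, 52 lost it and 0 turned in direction. A kept direction could be narrow, as for HSALG005496.2 at -0.05 in late pupae against embryos under median scaling. Causes were not tested, except that fewer genes or libraries enter some fits. The number of genes meeting the choice was 83 with a pseudocount of 0.1, 18 under median and under quantile scaling, 9 at a margin of at least 2, and 42 to 111 with single libraries left out. Total calls among the 42 genes follow. Males against workers gave 1 under median scaling, with only the 4 libraries compared, without both early pupa libraries and with limma-voom. Instar 4 against instar 1 gave 2 with a pseudocount of 0.1, 6 under median scaling, 3 under quantile scaling, 5 with only the 4 libraries, 3 without early pupae and 6 with limma-voom. Late pupae against embryos gave 1 with a pseudocount of 0.1 and with no filter, 6 under median and 4 under quantile scaling, 0 with only the 4 libraries, 10 without early pupae, 4 with limma-voom and 4 with the replicate block. Early pupae against instar 4 gave 0 with no filter, under quantile scaling and with only the 4 libraries, and 1 under median scaling and with limma-voom. Leaving out each library gave 0 to 1, 0 to 3, 0 to 10 and 0 to 38 calls in these comparisons, and 0 to 19 for late against early pupae. Where 1 library remained in a group, its spread was taken from the other groups.

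The labels do not say what replicate numbers stand for, and same-numbered libraries deviated with correlations between -0.26 and 0.15 over 21 pairs of groups, so no pairing was assumed. With the replicate block the calls were 0, 1, 4, 3 and 0, in the order males against workers, instar 4 against instar 1, late pupae against embryos, early pupae against instar 4 and late against early pupae. A crossed block with only the 4 libraries, added after the data were seen, gave 3 calls for late pupae against embryos and 0 for late against early pupae, where 0 of the 42 genes had an unadjusted p below 0.05. Depth limits the quiet genes most: HSALG023925.1 rested on 9 and 14 reads in the embryo libraries.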
